A study of Mus musculus with 10 samples.

Results

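The antiviral interferon-stimulated genes (ISGs) examined here were Ifit1, Ifit2, Ifit3, Oas2, Oas3, Rsad2, Cmpk2, Isg15, Mx1 and Mx2, that is 10 of the 21837 mouse genes considered, and they were chosen by name for their place in the interferon response. Hi-C counts how often any 2 stretches of the genome are ligated to each other in fixed nuclei, and a loop here is a pair of 10 kb bins that the authors listed as significant, with the number of contacts between them. A loop was assigned to a gene when either bin overlapped the 100 kb on either side of its transcription start site (TSS). This gave 68 loops without treatment (M0[CTR]), 50 during IL-4 (M2[IL-4]), 76 after IL-4 washout (M2p[pIL-4]), 98 with IFNG alone (IFNG) and 104 with priming followed by IFNG (pIL-4 + IFNG), which were 219 distinct bin pairs out of 153264 in the whole series. The 10 genes lie in 5 loci, and genes of the same locus share most of their loops, so they are not independent observations.

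All groups were bone marrow-derived macrophages (MFs) of wild-type female C57BL/6 mice, 2 to 3 months old, grown with M-CSF at 20 ng/ml for 6 days. M0[CTR] was left untreated. M2[IL-4] received IL-4 at 20 ng/ml for 24 hours, and M2p[pIL-4] received the same IL-4, which was then washed out for 24 hours of rest. IFNG was given at 20 ng/ml for 3 hours to unprimed MFs, and pIL-4 + IFNG were IL-4-primed, rested MFs that then got the same 3 hours of IFNG. Each group had 2 replicates but 1 loop list, so no difference between groups could be set against the spread between replicates and no test was run. Hi-C gives no expression values, so the macrophage identity of the cells could not be checked against marker genes. Marrow cultures grown with M-CSF can also keep other myeloid cells, and their share was not measured.

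ISGs are the effectors of the antiviral state. Type I interferons activate them through the ISGF3 complex, which binds the interferon-stimulated response element (ISRE), while IFNG acts mainly through gamma-activated sites (GAS) and through IRF1, which also binds ISRE-like sequence. The IFIT proteins bind viral RNA, the OAS proteins sense double-stranded RNA and make the second messenger that activates RNase L, Rsad2 encodes viperin, Cmpk2 a mitochondrial nucleotide kinase next to it, Isg15 a ubiquitin-like modifier, and Mx1 and Mx2 dynamin-like GTPases. Common laboratory strains such as C57BL/6 carry defective Mx genes, and Mx2 is annotated as a polymorphic pseudogene in GENCODE M21.

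The ISREs in front of these genes are shown because the ISRE is the best-known regulatory element of this class of genes. The search was for GAAANNGAAA on both strands, overlapping matches included, in the RefSeq promoter windows of GRCm38.p6, which run from 250 bases before to 50 bases after a start site. Of the 10 genes, 7 had a window, and 5 of these held at least 1 match, compared with 3.44% of all 32851 promoter windows. The matches are in capitals, with 10 bases on either side, written 5′ to 3′ on the strand of the gene:
Isg15, chr4:156200865-156200906, minus strand: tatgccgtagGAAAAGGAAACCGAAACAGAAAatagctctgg
Oas3, chr5:120777715-120777744, minus strand: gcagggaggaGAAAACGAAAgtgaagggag
Rsad2, chr12:26456553-26456582, minus strand: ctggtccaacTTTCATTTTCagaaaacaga
Ifit3, chr19:34583363-34583426, plus strand: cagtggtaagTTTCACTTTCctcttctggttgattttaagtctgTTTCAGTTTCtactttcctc
Ifit1, chr19:34640775-34640823, plus strand: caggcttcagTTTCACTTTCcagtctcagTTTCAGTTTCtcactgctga

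Distances here are to the start site of the RefSeq window, which can differ from the GENCODE start site used elsewhere, as it does at Ifit1. Isg15 held 3 overlapping matches, the farthest starting 78 bases upstream. Ifit3 and Ifit1 each held 2, read on the opposite strand, the farthest starting 156 and 104 bases upstream. Oas3 and Rsad2 held 1 each, at 75 and 120 bases, and that of Rsad2 was also read on the opposite strand. Ifit2 and Cmpk2 had windows without these letters. The GAS letters TTCNNNGAA, whose reverse complement is the same, occurred at 1 of the 7 genes with a window. This was Ifit2, which had 2 windows and 1 match. Of all windows, 8.3% held these letters. Oas2, Mx1 and Mx2 had no window.

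The 3 Ifit genes lie on chromosome 19, with Ifit2 at 34550694-34576419, Ifit3 at 34583531-34588731 and Ifit1 at 34640871-34650009, all on the plus strand, and their start sites are spread over 90.2 kb. Near Ifit2, M0[CTR] had 31 loops, M2[IL-4] had 25, M2p[pIL-4] had 34, IFNG had 49 and pIL-4 + IFNG had 41. Series of 5 values below keep this order of lists. Ifit3 had 33, 23, 32, 50 and 46 loops, and Ifit1 had 21, 15, 17, 32 and 31. Both IFNG-treated lists were above the other 3 lists for each gene, and M2[IL-4] was the lowest. These were loop-rich genes, since the median over all 21837 genes was 6 to 8 loops per list.

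Oas2 and Oas3 lie next to each other on the minus strand of chromosome 5, at 120730333-120749853 and 120753098-120777661, beside the Oas1 genes. Oas2 had 11, 11, 8, 16 and 17 loops. Oas3 had 8, 6, 5, 17 and 13. As at the Ifit genes, both lists with IFNG stood above the other 3.

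Mx1, on the minus strand of chromosome 16 at 97447035-97462907, had 4 loops without treatment, 2 with IL-4, 6 after washout, 7 with IFNG and 16 with priming and IFNG. Mx2, on the plus strand at 97535308-97560900, had 4, 2, 5, 7 and 18. The Mx genes were thus looped most often in primed MFs given IFNG, whereas IFNG alone stood only 1 loop above M2p[pIL-4] at Mx1. Isg15, on the minus strand of chromosome 4 at 156199424-156200818, had 12, 5, 16, 12 and 14 loops, and its IFNG-treated lists lay within the range of the others.

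Rsad2 and Cmpk2, divergent genes on chromosome 12 at 26442746-26456452 and 26469204-26479837 whose start sites are 12.8 kb apart, were almost without loops. Each had 1 loop without treatment, none with IL-4, 2 after washout, 1 with IFNG and none with priming and IFNG. The 4 bin pairs spanned 1350 to 1430 kb and held 7 to 11 contacts each. One, in IFNG alone, joined the bin of the Cmpk2 start site to the bin of Id2, an inhibitor of DNA binding, with 10 contacts. With a mean under 5 loops per list, both genes were left out of the ratios below, as were all genes below that mean, which left 8 members among 12271 genes.

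**Figure D1:**
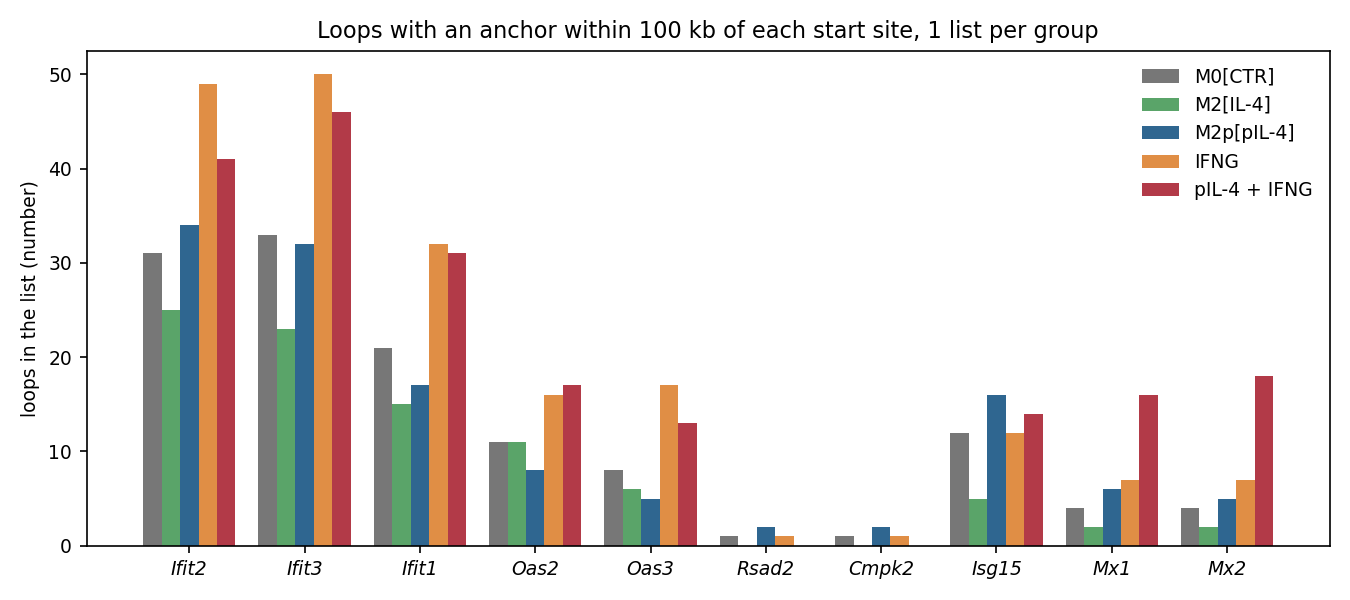
Number of loops with an anchor within 100 kb of each start site (y axis) for the 10 genes (x axis), with 1 bar per list and no error bars because each group has 1 list. Both IFNG-treated lists are highest at the Ifit and Oas genes, pIL-4 + IFNG stands alone at Mx1 and Mx2 with 16 and 18 loops, and Rsad2 and Cmpk2 have 2 or fewer.

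To ask which loop numbers went beyond the difference in list length, each pair of lists was compared as a log2 ratio of loop number, scaled by the length of the lists (53424 to 67728 loops) with a pseudocount of 1. A ratio past 1.5-fold was counted. In the IFNG list against M0[CTR], 4 of the 8 members were past 1.5-fold higher, Ifit2, Oas3, Mx1 and Mx2, beside 10.2% of all genes tested, and none was past it lower, beside 8.48%. The largest was Oas3 with 17 against 8 loops, a log2 ratio of 0.96 (95% exact interval -0.24 to 2.47). Isg15, at -0.04, was the 1 member of the 8 not above 0, and the median of the 8 was 0.57, whereas that of all genes was -0.04. The interval of every single member included 0, so the depth of these lists could not show a difference at a single gene.

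In primed MFs given IFNG, pIL-4 + IFNG against M2p[pIL-4], 5 members were past 1.5-fold higher, Ifit1, Oas2, Oas3, Mx1 and Mx2, beside 8.21% of all genes, and none was lower, beside 6.11%. Mx2 had 18 against 5 loops, a log2 ratio of 1.68 (0.38 to 3.65), and ranked 31st from the top of 12271 genes. Mx1 had 16 against 6, a log2 ratio of 1.30, and its interval reached down to 0. Oas3 (13 against 5, log2 1.24), Oas2 (17 against 8, log2 1.02) and Ifit1 (31 against 17, log2 0.85) were higher with intervals that included 0, and Isg15 was at -0.17. The median of the 8 was 0.93, beside 0.02 over all genes. These intervals cover counting error only, and they treat neighbouring bin pairs as separate loops.

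The M2[IL-4] list held fewer loops than M0[CTR] at 7 of the 8 members, and as many at Oas2. In M2[IL-4] against M0[CTR] all 8 members were below 0 after scaling (Oas2, at -0.13, was at 0.00 without it), with a median of -0.61 (all genes, -0.02), and 4 were past 1.5-fold lower, Ifit3, Isg15, Mx1 and Mx2, beside 7.82% of all genes, while none was higher, beside 8.9%. Isg15 differed most, with 5 against 12 loops and a log2 ratio of -1.24 (-3.25 to 0.22). After washout, in M2p[pIL-4] against M0[CTR], Ifit1, Oas2 and Oas3 were past 1.5-fold lower, that is 3 members beside 5.17% of all genes, and none was higher, beside 7.24%. Isg15 was then at 0.04 with 16 against 12 loops. With the difference in list length left in, 1 of these 3 members stayed past the fold.

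Between both IFNG-treated lists, pIL-4 + IFNG against IFNG, Mx1 and Mx2 were past 1.5-fold higher (log2 0.80 and 0.96), 2 members beside 7.36% of all genes. Oas3 was past it lower (13 against 17 loops, log2 -0.65), 1 member beside 4.92%. Without scaling by list length the counts were 2 higher and 0 lower. The Ifit genes were between -0.33 and -0.54. Every interval included 0 in this comparison. The comparisons share lists (M0[CTR] enters 3 of them and each IFNG-treated list 2), so they are not separate evidence.

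**Figure D2:**
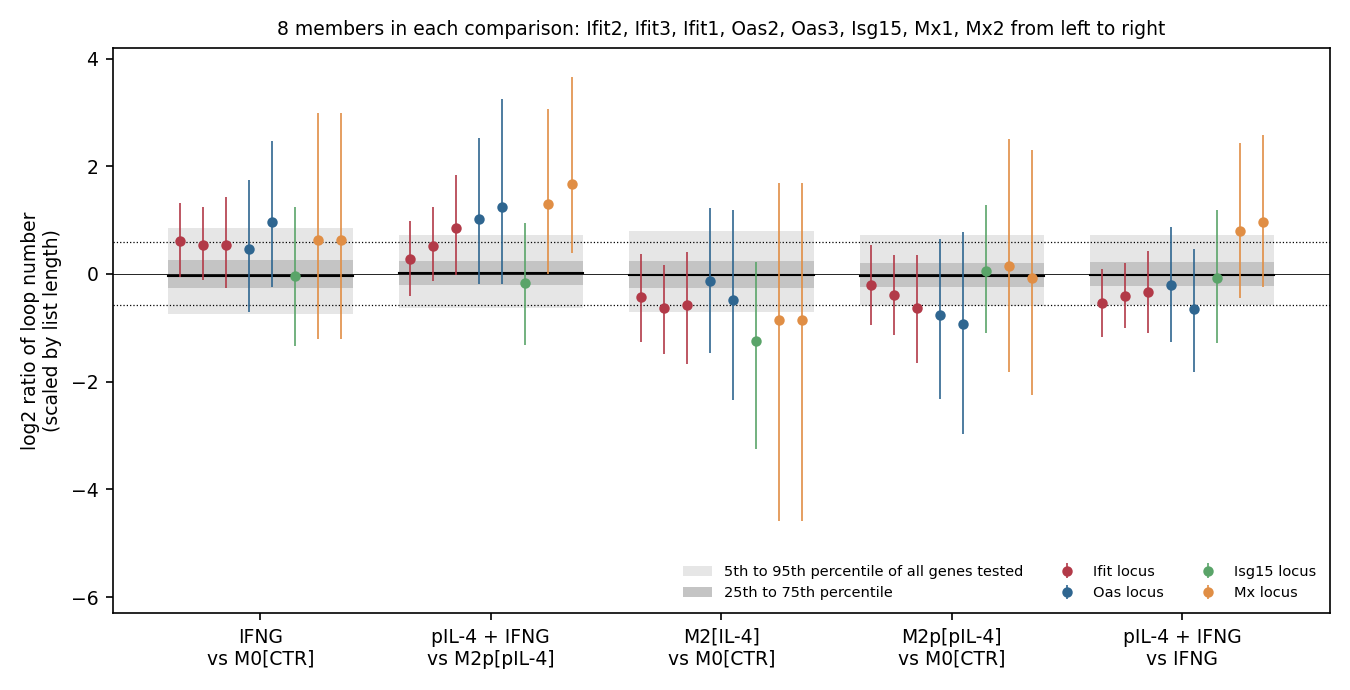
Log2 ratio of loop number scaled by list length (y axis) for 8 members in the 5 comparisons (x axis), with 95% exact intervals for counting error as vertical lines, and the spread of all 12271 genes tested as grey boxes around their median (black line). Dotted lines mark 1.5-fold. Most Ifit, Oas and Mx points lie above the median of all genes in both IFNG comparisons, the Isg15 points do not, and all 8 lie below 0 in M2[IL-4] against M0[CTR], Oas2 by the scaling alone.

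Counted once each over the 5 loci, the loops near members were 98 in IFNG against 68 in M0[CTR], a ratio of 1.39 after scaling (log2 0.48, 0.02 to 0.95), and 104 in pIL-4 + IFNG against 76 in M2p[pIL-4], a ratio of 1.38 (log2 0.46, 0.03 to 0.91). M2[IL-4] against M0[CTR] gave 50 against 68, a ratio of 0.68 (log2 -0.56, -1.13 to -0.02). For M2p[pIL-4] against M0[CTR] the log2 ratio was -0.18 (-0.67 to 0.31), and for pIL-4 + IFNG against IFNG it was -0.20 (-0.61 to 0.21). These intervals also cover counting error only and treat touching bin pairs as separate loops, so those that leave out 0 do not resolve a difference. Merging touching pairs left far fewer groups of loops, with 13, 11, 12, 16 and 18 at Ifit, 4, 3, 4, 10 and 6 at Oas, and 8, 5, 10, 8 and 11 at Isg15. By locus, the IFNG list against M0[CTR] had 59 and 40 loops at Ifit, 19 and 11 at Oas, 12 and 12 at Isg15, and 7 and 4 at Mx. The primed pair had 55 and 43 at Ifit, 17 and 9 at Oas, 14 and 16 at Isg15, and 18 and 6 at Mx.

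Loops that touched the 10 kb bin of a member's start site itself were few. M0[CTR] had 6 of them, M2[IL-4] had 1, M2p[pIL-4] had 5, and both IFNG-treated lists had 12. Over all genes such loops made up 29.2 to 29.8% of each list, so the lists did not differ in this respect as a whole. The single loop of M2[IL-4] belonged to Ifit2. The log2 ratio was 0.85 for IFNG against M0[CTR] (-0.57 to 2.66) and -1.93 for M2[IL-4] against M0[CTR] (-8.23 to 0.33), so neither was resolved at these numbers.

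Of the 219 bin pairs near members, 89 were called in 1 or both IFNG-treated lists and in no other list, or 40.6% (95% Wilson interval 34.3 to 47.3), whereas 24.8% of the bin pairs of the whole series were of this class. The reverse class, called in lists without IFNG alone, held 61 pairs or 27.9% (22.3 to 34.1), whereas the series had 39.3%. Mx had the highest share of IFNG-treated lists alone, 16 of 26 pairs or 61.5%, and Oas had 14 of 30, Isg15 17 of 44 and Ifit 41 of 115. The reverse class held 4 of 26 pairs at Mx, 4 of 30 at Oas and 30 of 115 at Ifit. At Isg15 it held 20 of 44 or 45.5%, more than the class of IFNG-treated lists alone and above the share of the series. Bin pairs called in a single list made up 61.6% near members and 55.5% in the series. When a call within 25 kb at both anchors counted as the same loop, 11.4% of pairs near members were left in IFNG-treated lists alone (7.85 to 16.3), beside 4.6% in the series, and 49.8% were found in all 5 lists, beside 64.5%. The loci differed in this. In all 5 lists were 67.8% of pairs at Ifit, 53.3% at Oas, 30.8% at Mx and 15.9% at Isg15. At Ifit 7.83% were left in IFNG-treated lists alone, with an interval (4.17 to 14.2) that holds the share of the series. Most calls seen in IFNG-treated lists alone thus had a call in another list a bin or a pair of bins away.

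**Figure D3:**
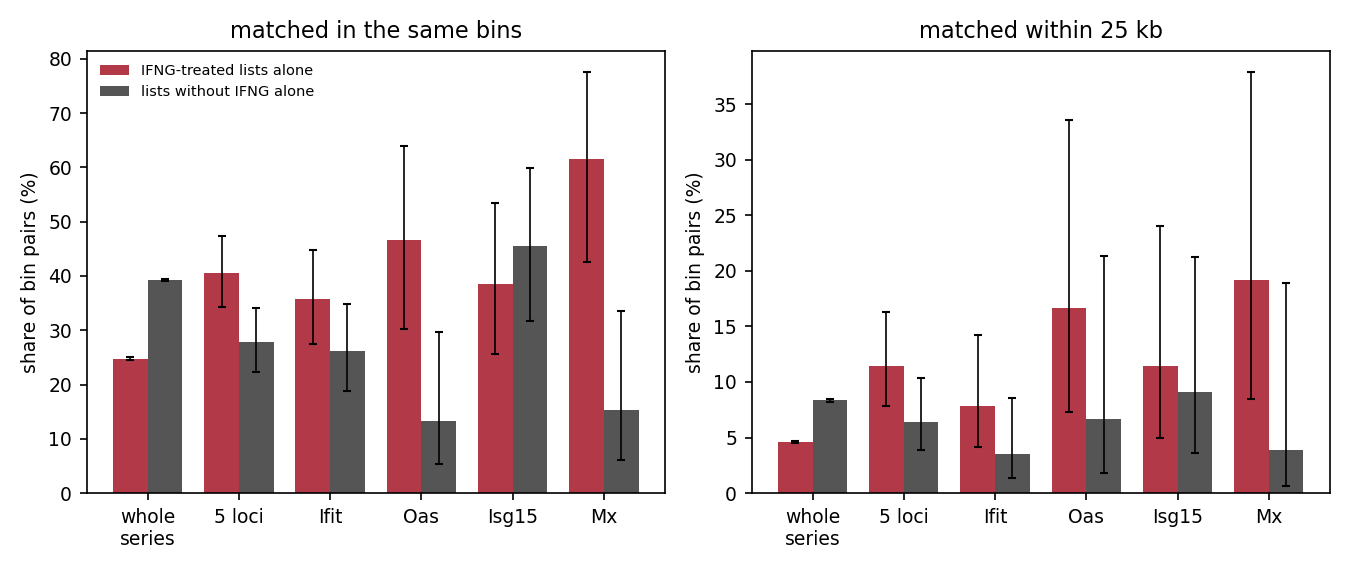
Share of bin pairs (y axis, percent) called in IFNG-treated lists alone (red) or in lists without IFNG alone (grey), for the whole series, the 5 loci together and 4 of the loci, matched in the same bins (left) or within 25 kb (right), with 95% Wilson intervals. Near members the red share is 40.6% against 24.8% in the series with the same bins, and 11.4% against 4.6% within 25 kb.

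At the Ifit locus 115 bin pairs were called. Many lay over Stambpl1, Fas, Ch25h and Lipa upstream of Ifit2, within the Ifit cluster, or over Slc16a12 downstream of Ifit1, and others bridged these stretches. Ch25h and Lipa encode cholesterol 25-hydroxylase and lysosomal acid lipase. Bins overlapping Lipa and Ifit1 were joined by 3 pairs, 2 in the IFNG list and 1 in pIL-4 + IFNG. All of these had a call within 25 kb in M2p[pIL-4]. Bins over Lipa and Ifit1bl2 were joined by 3 pairs, with 1 call each in M2p[pIL-4], IFNG and pIL-4 + IFNG. The IFNG pair of chr19:34500001-34510000 with chr19:34640001-34650000 is in both sets, because its second bin overlaps both genes. The other Lipa and Ifit1 pairs ended in chr19:34650001-34660000, which holds only the end of Ifit1. Within the cluster, the loop joining the start-site bin of Ifit2 (chr19:34550001-34560000) to a bin over Ifit1bl2 (chr19:34630001-34640000) was in all 5 lists, with 31, 42, 40, 34 and 38 contacts. These values overlap within their counting error. The bin just upstream of Ifit2 (chr19:34540001-34550000) was joined to the bin that starts at the end of Ifit1 (chr19:34650001-34660000) in all lists as well. This pair had 41, 34, 40, 55 and 39 contacts, and its second bin holds only the last bases of Ifit1.

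Other Ifit loops were listed in some groups only. The start-site bin of Ifit2 was joined to the bin 20 kb downstream (chr19:34570001-34580000), which still overlaps Ifit2, with 69 contacts in IFNG and 67 in pIL-4 + IFNG. No other list had a call within 25 kb of it. Their strength was below the median of called loops of that span (94 and 90 contacts), and the contacts in the other lists are unknown because a pair that was not called has no value. The Ifit3 start-site bin (chr19:34580001-34590000) was joined to the Ifit1bl2 bin with 40 contacts after washout, 39 with IFNG and 48 with priming and IFNG. The Ifit1 start-site bin was joined to the bin upstream of Ifit2 with 26, 24, 30 and 28 contacts in every list but M2[IL-4]. For both the Ifit3 pair and the Ifit1 pair, all 5 lists, M2[IL-4] included, had a call within 25 kb.

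**Figure D4:**
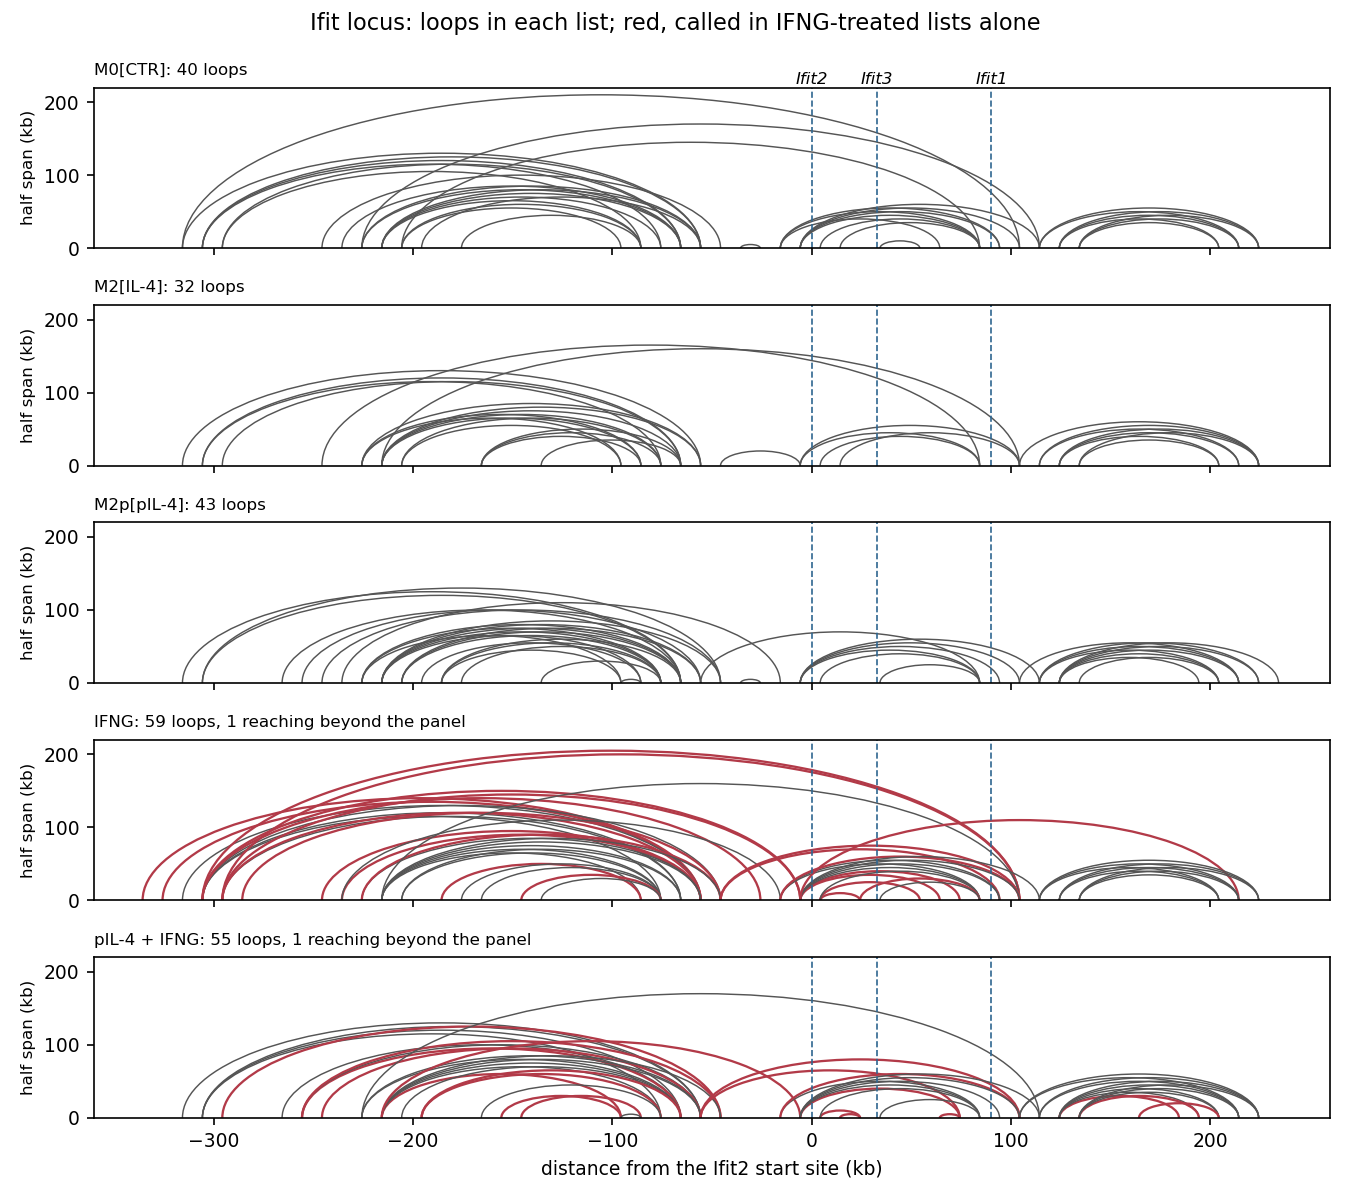
Loops of the Ifit locus in each list as arcs over the distance from the Ifit2 start site (x axis, kb), with the radius of each arc as height (y axis, kb); dashed lines mark the Ifit2, Ifit3 and Ifit1 start sites. Red arcs are bin pairs called in IFNG-treated lists alone, and they are seen both upstream of Ifit2 and between Ifit2 and Ifit1.

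The Oas locus fell into a gene-dense stretch over Ddx54, Cfap73, Rasal1 and Dtx1 and the Oas gene cluster itself. Beside the cluster, the loop between Ddx54 and Rasal1 (chr5:120620001-120630000 with chr5:120670001-120680000) was in all lists with 61, 84, 76, 90 and 82 contacts. Also beside it, adjacent bins over Rasal1 (chr5:120650001-120660000 with chr5:120660001-120670000) were joined in both IFNG-treated lists and no other. This pair had 174 contacts in IFNG and 192 in pIL-4 + IFNG, but all 5 lists had a call within 25 kb. Both bins of a loop lay in the cluster, from Oas2 onward, in 3, 1, 2, 10 and 4 loops of the lists. Both lay beside it in 8, 10, 7, 9 and 12. This split was made after the values were seen. It places the extra loops of the IFNG list over M0[CTR] mostly inside the cluster, with 10 against 3. In the primed pair, pIL-4 + IFNG against M2p[pIL-4], the counts were 4 against 2 inside it and 12 against 7 beside it.

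The start sites of Oas2 and Oas3 (chr5:120740001-120750000 and chr5:120770001-120780000) were joined in the IFNG list with 72 contacts and in no other, although a call within 25 kb was present in M0[CTR], M2[IL-4] and pIL-4 + IFNG. The Oas3 start-site bin was joined to the bin 20 kb into the gene with 93 contacts without treatment, 95 with IFNG and 118 with priming and IFNG, and to the adjacent bin with 160, 177 and 166. Neither was called in M2[IL-4] or M2p[pIL-4], although M2[IL-4] had a call within 25 kb of both, between the neighbouring bins chr5:120750001-120760000 and chr5:120760001-120770000, with 164 contacts. Among the Oas1 genes, adjacent or near bins of Oas1b, Oas1f and Oas1g were joined in the IFNG list alone. Other lists had pairs of their own there. Bins over Oas1e and Oas1f were joined in M0[CTR] alone with 54 contacts, and bins over Oas1f and Oas1d in pIL-4 + IFNG alone with 67. The IFNG pair over Oas1f and Oas1d, with 71 contacts, had calls within 25 kb in M2p[pIL-4] and pIL-4 + IFNG. The Oas and Ifit genes are families of similar sequence, and reads that fit several copies can be lost in mapping.

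At Isg15, 35 of 44 bin pairs were in a single list. The loop in all lists joined adjacent bins over Perm1 and Plekhn1 next to the gene (chr4:156210001-156220000 with chr4:156220001-156230000), with 210, 204, 210, 235 and 228 contacts. The Isg15 start-site bin (chr4:156200001-156210000) was joined to the bin over Perm1 and Plekhn1 in IFNG with 118 contacts and in pIL-4 + IFNG with 116. Both were above the median of loops of that span (94 and 90), but all 5 lists had a call within 25 kb. In pIL-4 + IFNG the same bin also reached Noc2l and Samd11, with 58 and 26 contacts at 40 and 50 kb, and in M2p[pIL-4] it reached Plekhn1 and Noc2l, with 56 contacts at 30 kb. It was without loops in M0[CTR] and M2[IL-4]. A bin in Agrn (chr4:156170001-156180000) was joined to chr4:155970001-155980000 in the 3 IL-4-exposed lists and no other, with 26 contacts during IL-4, 31 after washout and 24 with priming and IFNG, although the IFNG list had a call within 25 kb of it. It was the 1 such pair among the 219 (0.457%), beside 1.45% in the series.

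At the Mx locus no loop was in all 5 lists with the same bins. Within 25 kb, 8 of the 26 bin pairs had a call in all 5 lists, and 5 were in IFNG-treated lists alone. Bins over Mx1 and bins over Mx2 were joined by no loop in M0[CTR], M2[IL-4] or M2p[pIL-4], by 2 in IFNG and by 4 in pIL-4 + IFNG. The pair found in both joined the end of Mx1 (chr16:97440001-97450000, which also overlaps Bace2) to the body of Mx2 (chr16:97550001-97560000) with 35 and 38 contacts. The Mx1 and Mx2 start-site bins (chr16:97460001-97470000 and chr16:97530001-97540000), 70 kb apart, were joined in pIL-4 + IFNG alone with 40 contacts, below the median of 48 for that span, and calls within 25 kb were present in M2[IL-4] and IFNG. By contrast, bins over Mx1 and Tmprss2, a serine protease gene beyond Mx2, were joined in 2, 0, 3, 2 and 3 loops in the 5 lists. Merging touching bin pairs left 2, 2, 2, 4 and 9 groups of loops at Mx, and with it the log2 ratio of pIL-4 + IFNG against IFNG was 0.47 at Mx1, no longer past 1.5-fold, and 0.79 at Mx2.

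**Figure D5:**
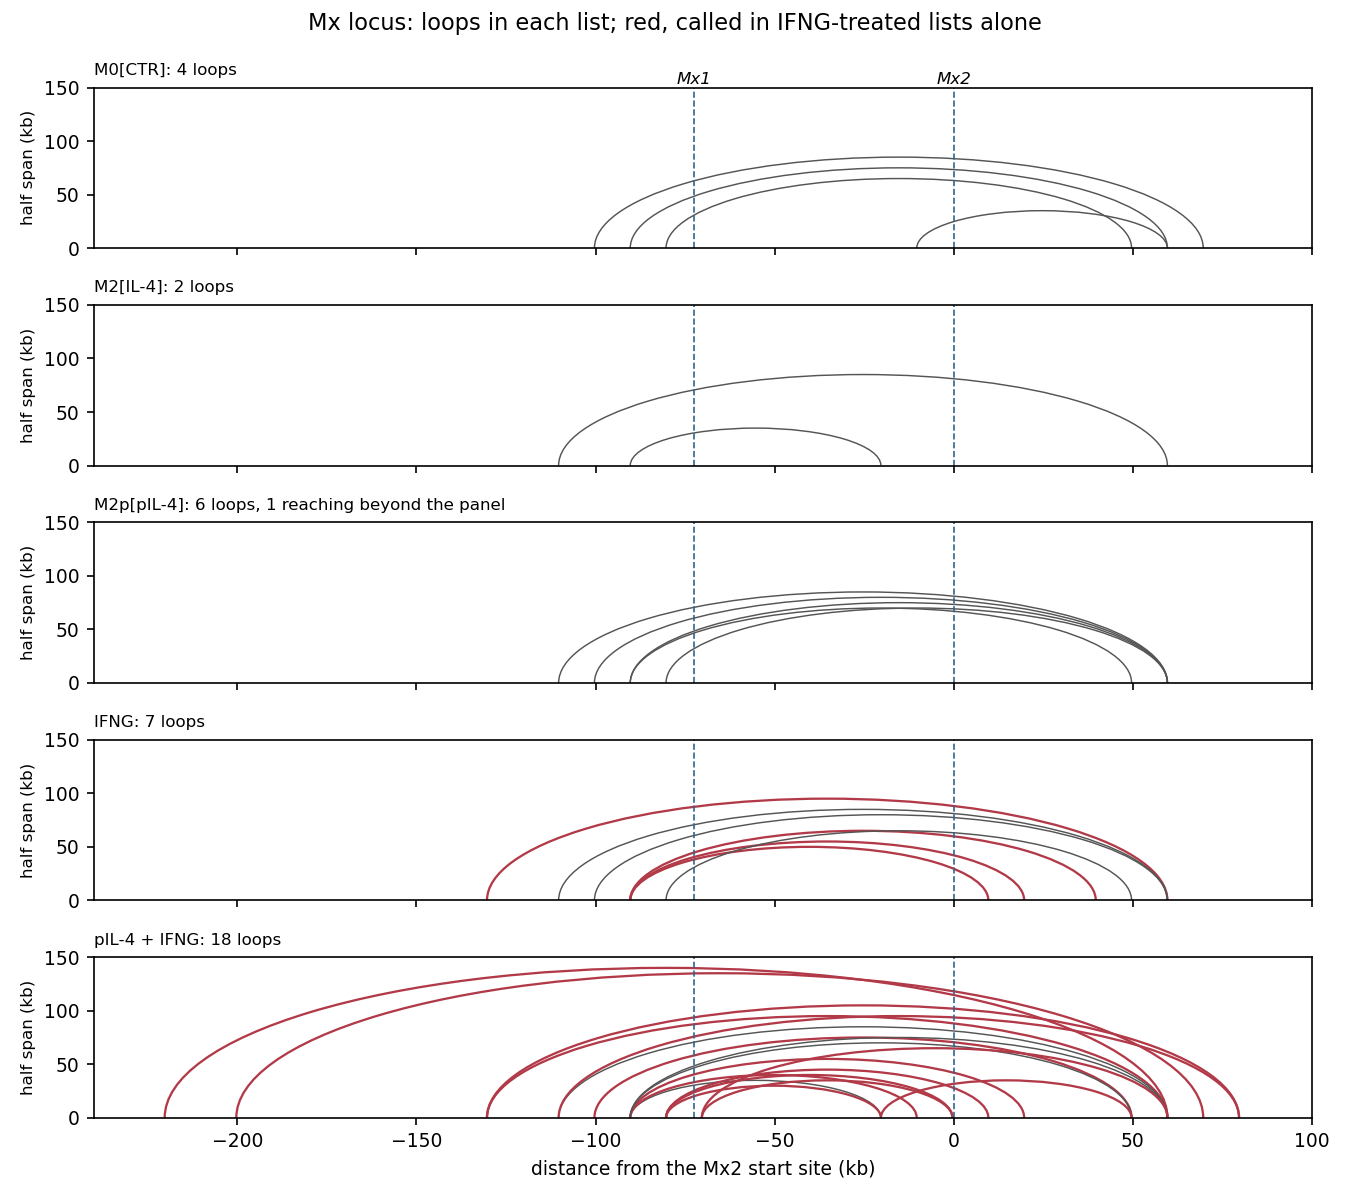
Loops of the Mx locus in each list as arcs over the distance from the Mx2 start site (x axis, kb), with the radius of each arc as height (y axis, kb); dashed lines mark the Mx1 and Mx2 start sites. M0[CTR] and M2[IL-4] have 4 and 2 loops, pIL-4 + IFNG has 18, and most of the latter are red, called in IFNG-treated lists alone.

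The strength of a loop was taken as its contacts over the median of loops of the same span in the same list, so that 1 is an ordinary loop. The median strength was 0.75 to 0.893 over the 5 lists at Ifit, 1.13 to 1.20 at Oas, 0.811 to 0.972 at Isg15 and 0.746 to 0.93 at Mx. Of these 4 loci only Oas was above ordinary strength in every list, and its loops were short, with a median span of 40 to 50 kb beside 160 to 180 kb for the whole lists. The median Ifit, Isg15 and Mx loop was weaker than an ordinary loop in every list.

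Where a loop was listed in every group, its contacts could be compared directly. Pairs that gained or lost enough contacts to be listed in some groups only cannot be among these, so the ratios below do not cover them. Bin pairs listed in every group numbered 18, with 13 at Ifit, 4 at Oas and 1 at Isg15. They made up 8.22% of those near members, beside 9.18% in the series. Only 1 of them, the pair of Ifit2 and Ifit1bl2, touched the start-site bin of a member. The 4 at Oas lay beside the Oas cluster, and the 1 at Isg15 joined bins over Perm1 and Plekhn1. The 18 pairs held 1010, 993, 1019, 1054 and 1033 contacts. Scaled by the contacts at the 14063 bin pairs called in all lists genome-wide, the ratio was 1.01 for IFNG against M0[CTR] (95% exact interval 0.93 to 1.11) and 1.03 for pIL-4 + IFNG against M2p[pIL-4] (0.94 to 1.12). M2[IL-4] against M0[CTR] gave 0.98 (0.90 to 1.08). At Ifit alone the contacts were 544, 494, 528, 530 and 542, and at Oas 256, 295, 281, 289 and 263. No ratio above 1.12 or below 0.90 lies within these 3 intervals.

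CTCF, the zinc finger protein at which cohesin-driven loops are often anchored, has a motif with a direction, and anchors are often seen with motifs facing each other. The central part of the motif was searched for by exact match on both strands. It was found in 14 of the 137 bins at either end of the loops near members, or 10.2%, beside 9.15% of all loop anchor bins and 4.71% of all 10 kb bins. Facing matches flanked the loops downstream of Ifit1, where a plus-strand match in the bin chr19:34660001-34670000 was joined to a minus-strand match in chr19:34770001-34780000 in all 5 lists, with 40, 37, 50, 41 and 32 contacts. At Mx, a match between Mx1 and Mx2 and one in Tmprss2 also faced each other, in a loop of M0[CTR] alone with 27 contacts, with a call within 25 kb in pIL-4 + IFNG. The Tmprss2 match also faced one in the bin chr16:97310001-97320000, in a loop of pIL-4 + IFNG alone with 17 contacts. The matches of the first pair at each locus are printed on the strand of the match, with the part searched for in capitals, to show the bases at the ends of these loops:
Slc16a12 side, chr19:34666340-34666371, plus strand: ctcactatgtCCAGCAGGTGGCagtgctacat
facing it, chr19:34773006-34773037, minus strand: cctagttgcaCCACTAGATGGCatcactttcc
between Mx1 and Mx2, chr16:97523227-97523258, plus strand: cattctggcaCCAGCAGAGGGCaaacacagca
in Tmprss2, chr16:97593286-97593317, minus strand: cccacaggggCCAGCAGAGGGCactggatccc

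Of 44 other ISGs listed for comparison, 6 had windows that meet those of the members and 9 had too few loops, which left 29. In IFNG against M0[CTR], 6 of the 29 were past 1.5-fold higher (all genes, 10.2%) and 1 lower (8.48%), with a median log2 ratio of 0.15. In primed MFs with against without IFNG, 5 were higher (8.21%) and none lower (6.11%), with a median of 0.23. High in the first comparison were the neighbours Parp9 and Dtx3l, which share their loops, with 6 loops in M0[CTR] and 15 in IFNG (log2 1.15). Another of the 6 has a window that overlaps theirs, and Parp9 and Dtx3l are both among the 5 in primed MFs as well. Neither count is thus one of separate loci. The 3 lowest were Lgals3bp (log2 -0.60), Ifi35 (-0.50) and Oasl2 (-0.47). In the 3 comparisons of lists without a difference in IFNG treatment the medians of the 29 were -0.03 for M2[IL-4] against M0[CTR], -0.02 for M2p[pIL-4] against M0[CTR] and 0.07 for pIL-4 + IFNG against IFNG.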

How the data were processed

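Hi-C was done on 10 libraries, 2 biological replicates in each of 5 groups. Per the study's methods, the authors mapped reads by bowtie2 within HiC-Pro (an nf-core pipeline), balanced the maps and called loops at another resolution than the 10 kb bins in the lists used here. The submitters' processing notes also name mm10, FastQC, Juicer and HOMER. The values deposited are whole-number counts of contacts for each listed bin pair, in 1 list per group. The caller, its threshold and how the replicates were combined for these lists are not given in the sources used here. The lists hold no library depth, so list length (53424 to 67728) was used for scaling. How these lists were thresholded decides which pairs are seen, so a pair that was not listed may still have contacts.

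Scripts ran in Python 3.11.15 (scipy 1.17.1, pandas 2.3.3, numpy 2.4.6; figures, matplotlib 3.10.9). Start sites came from GENCODE M21 (GRCm38), and sequences from RefSeq GRCm38.p6. Loops were counted per gene in windows of 100 kb over 21837 genes, and the counting was tested on simulated data. Ratios used a pseudocount of 1, and genes needed a mean of 5 loops per list. Intervals are 95% exact binomial or Wilson intervals and cover counting error only. The members and lists were chosen with earlier results of these data known. Named were the 10 members, the 3 highest and 3 lowest other ISGs in IFNG against M0[CTR] (1 of them is not reported here), and at each locus the loop strongest for its span in all lists, in both IFNG-treated lists only and in the 3 IL-4-exposed lists only, with the genes at their ends. Other loops were chosen after their values were seen.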

Additional observations from a re-analysis of the deposited data

How the results depend on the processing

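Windows of 50 kb, 25 kb or the start-site bin, merging of touching pairs, no scaling, scaling by distant loops of the chromosome, a pseudocount of 5, leaving out adjacent bins, a minimum of 20 contacts, equal list lengths, any transcript start and a fold of 2 were tried. Of 440 ratios of single members, 432 stayed within their interval. The ratios of Mx1 and Mx2 in IFNG against M0[CTR] were -0.04 with the start-site bin alone, where both lists had no loop. Over all loci the log2 ratio moved to -1.93 (M2[IL-4] against M0[CTR]) and 1.13 (pIL-4 + IFNG against M2p[pIL-4]) with the start-site bin. With 25 kb it was -0.69 for M2p[pIL-4] against M0[CTR] and 0.99 for pIL-4 + IFNG against M2p[pIL-4], and with equal list lengths -0.68 for the former.

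The 4 members higher in IFNG against M0[CTR] became 0 with a fold of 2, 1 with a pseudocount of 5 and 2 with 25 kb. The 4 lower in M2[IL-4] became 1 with a fold of 2, a pseudocount of 5 or merging, and 7 with 50 kb. The 3 lower in M2p[pIL-4] became 5 with equal lengths or 50 kb, 7 with 25 kb, 1 without scaling and 0 with a fold of 2, and 1 member was higher with the start-site bin. The 5 higher with IFNG in primed MFs became 8 with 25 kb. In pIL-4 + IFNG against IFNG, the 2 higher became 1 with a pseudocount of 5 or merging and 0 with a fold of 2, and the 1 lower became 4 with the start-site bin, 2 with 50 kb, 25 kb or equal lengths, and 0 otherwise where it moved (a fold of 2, no scaling, a pseudocount of 5, any transcript start). Matching within 25 kb moved the share in a single list to 10.5%, in all 5 lists to 49.8%, in IFNG-treated lists alone to 11.4% and in lists without IFNG alone to 6.39%. Apart from the construction of each alternative, the cause was not tested. The contacts at pairs in all 5 lists stayed within their intervals under both alternatives tried for them.

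No paired analysis was possible because the lists, 1 per group, hold no values per replicate, and for the same reason leaving out a replicate was not run.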
